A study of Mus musculus with 6 samples.

Results

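The type I interferon response genes are the genes that a cell switches on when interferon alpha or beta, made on contact with viral or misplaced nucleic acid, binds its receptor. The set described here had 34 members, taken by symbol from the authors' deposited table, out of 22311 genes with a symbol on the array. A gene's probe set is the group of oligonucleotides that measures it, and a gene with several probe sets was represented by the one with the highest mean. Levels are RMA expression values on the log2 scale, where 1 unit is a 2-fold ratio, and each gene is compared with itself across arrays. Irf1 was the 1 member with more than 1 probe set, and its other probe set was dim (3.48 to 3.89). The members and the other gene lists were chosen with earlier results of these data known, so a pattern over the list is a description and carries no p-value.

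Affymetrix arrays, 1 per culture, had been run on 6 cultures of mesenchymal stromal cells from mouse bone marrow, which grow attached to plastic and can give rise to bone, fat and cartilage. The 3 tetraploid cultures, whose cells carry a doubled chromosome set, were a primary culture (tetraploid I), an MSC line (tetraploid II) and a clone labelled as an artificial tetraploid (tetraploid III). The 3 diploid cultures were a clone (diploid I) and a pair of primary cultures (diploid II and III). Each line or clone stands for 1 cell population, and how the artificial clone was made is not stated in the labels. All were grown in a commercial stem cell medium, and their ploidy comes from propidium iodide staining of DNA, read on a flow cytometer, and from spectral karyotyping. The labels give no strain, age or interferon treatment, nor whether the cultures came from separate animals, so the p-values measure only the spread between these cultures. An array of a whole culture cannot tell more responding cells from more RNA per cell.

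Binding of interferon to its receptor activates the kinases JAK1 and TYK2, which phosphorylate STAT2. With IRF9, STAT2 is part of a complex that binds the interferon-stimulated response element, a DNA motif in the promoters of the induced genes. The products sense foreign nucleic acid, block translation, degrade RNA or trap virus particles, and some of them, such as IRF7, strengthen the response while others, such as USP18, shut it down. Interferons also act on marrow stroma, which supports blood formation.

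Promoters from RefSeq (build GRCm38.p6) were found for 26 of the 34 members, and the 250 bases before each start were searched. The motif GAAA, any 2 bases, GAAA, the core of the interferon-stimulated response element, was searched on both strands. It lay in the promoter of 10 of the 26 members, 38.5%, against 3.46% of 27025 genes and 2.98% of 32851 windows of the same length. The stretches shown end at the base before the start and show, in capitals, the matches. The first 4 belong to members with a large excess in tetraploid I. Ifit1 and Ifit3 are neighbours on chromosome 19, at chr19:34640769-34640888 and chr19:34583369-34583528 (plus strand), Isg15 is at chr4:156200819-156200918 (minus strand) and Gbp3 at chr3:142559944-142560043 (plus strand).
Ifit1: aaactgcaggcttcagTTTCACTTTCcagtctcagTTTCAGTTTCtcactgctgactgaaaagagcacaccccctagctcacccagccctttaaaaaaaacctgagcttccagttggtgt
Ifit3: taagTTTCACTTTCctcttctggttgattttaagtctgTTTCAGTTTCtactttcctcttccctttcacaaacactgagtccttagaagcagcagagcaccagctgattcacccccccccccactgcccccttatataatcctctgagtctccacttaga
Isg15: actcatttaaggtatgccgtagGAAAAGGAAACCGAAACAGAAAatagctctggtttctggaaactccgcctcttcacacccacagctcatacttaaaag
Gbp3: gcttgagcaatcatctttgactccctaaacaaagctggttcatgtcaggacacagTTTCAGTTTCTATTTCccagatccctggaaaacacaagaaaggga
In Isg15 3 matches overlapped in 1 run, and in Gbp3 2 did. Gbp2, a neighbour of Gbp3 at chr3:142620563-142620662 (plus strand), is shown because it holds a match but had a small excess in tetraploid I.
Gbp2: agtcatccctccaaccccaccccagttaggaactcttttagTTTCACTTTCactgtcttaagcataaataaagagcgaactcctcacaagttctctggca
Irf1, at chr11:53769894-53770013 (plus strand), is shown because it held no match to that element and was not highest in tetraploid I. The capitals mark a match to TTCNNNGAA, the core of the element bound by STAT dimers, which reads the same on both strands. That motif lay in the promoter of 5 of the 26 members, 19.2%, against 8.13% of genes.
Irf1: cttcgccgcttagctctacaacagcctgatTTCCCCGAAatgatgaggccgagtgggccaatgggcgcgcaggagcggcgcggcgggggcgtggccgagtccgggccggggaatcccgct
Of the 10 members with a match to that element, 8 were more than 2-fold higher in tetraploid I than on any other array, with a median excess of 1.97 on the log2 scale. Of the 16 members without one, 10 were, with a median excess of 1.26. A match is a run of letters and not a bound site, and its absence says only that these letters are not in the window.

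The pattern of the list was an excess in 1 culture. In 29 of the 34 members the highest value was that of tetraploid I, against 13.0% of all genes. In 23 members it lay more than 2-fold above every other array, which 1.03% of all genes did, and in 10 members more than 4-fold, which 0.291% did. The other 5 arrays had 0 members more than 2-fold above the rest, where such genes made up 1.55% and 0.0986% of all genes in tetraploid II and III, against 0.417%, 0.188% and 1.82% in diploid I, II and III. Oasl1 was highest in diploid I, Irf1 in diploid II, and Ddx58, Trim25 and Mx1 in diploid III, where 16.6%, 9.38% and 38.5% of all genes were highest, while tetraploid II and III were highest in 0 members, against 15.6% and 6.89% of genes. The members had a median of 7.91 in tetraploid I, where tetraploid II had 4.63 and tetraploid III 4.93, against 5.03, 5.12 and 6.14 in diploid I, II and III. The medians of the whole arrays lay between 4.54 and 4.78. Of the 100 genes with the largest excess in tetraploid I over the highest other array, 15 were members and 8 more came from a list of 45 other interferon-induced genes. The comparison sets 1 culture against 5 and has no replicate, so no test was made of it.

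**Figure D1:**
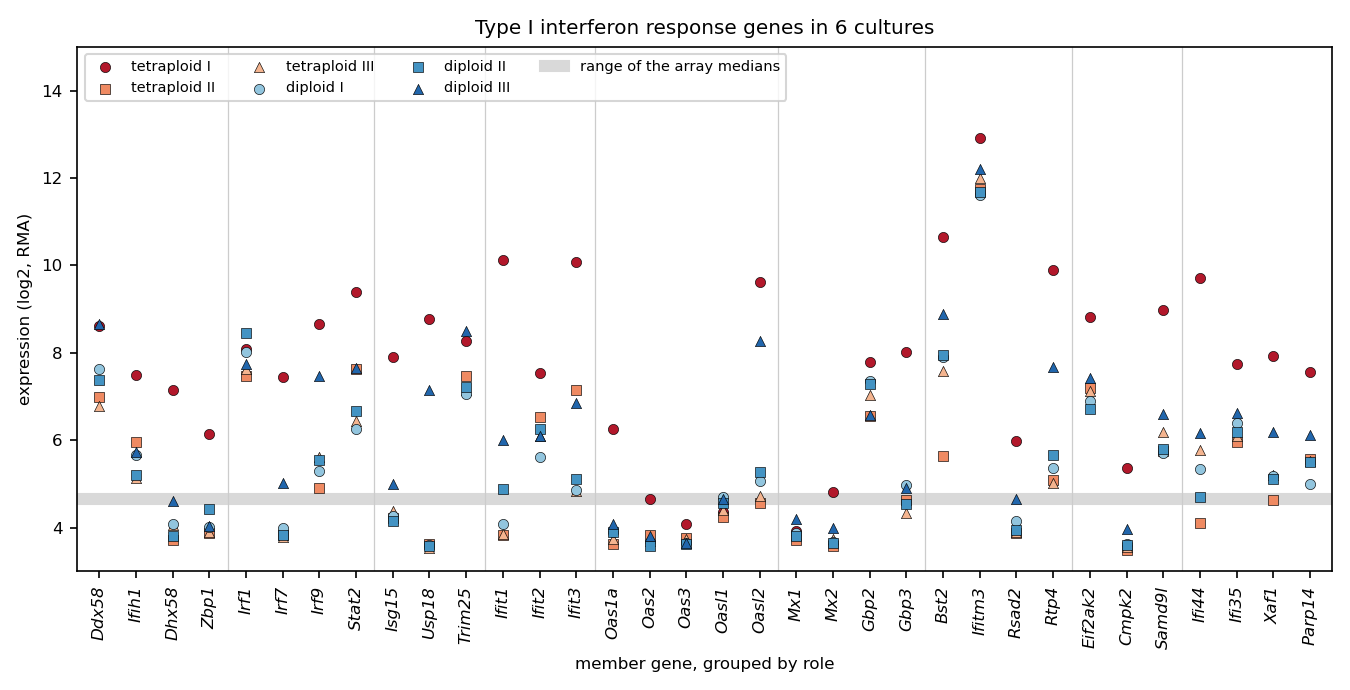
Log2 expression (RMA) of each of the 34 members on the 6 arrays, grouped by role, with 1 point per culture and a grey band from the lowest to the highest array median. Tetraploid I is the highest point for 29 members, and diploid III the second highest for 22.

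The cytosolic sensors of viral RNA were higher in tetraploid I, except for Ddx58. Ddx58 encodes RIG-I, which detects RNA with a free triphosphate end. It had 8.61, 7.0 and 6.79 in tetraploid I, II and III, against 7.62, 7.37 and 8.66 in diploid I, II and III. Tetraploid I and diploid III were alike and above the other 4 cultures. Ifih1, which encodes the sensor of long double-stranded RNA MDA5, had 7.49, 5.96 and 5.14 in tetraploid I, II and III, against 5.66, 5.21 and 5.72 in diploid I, II and III. Here tetraploid I stood alone, 2.89-fold above the next array. Dhx58, which encodes LGP2, a regulator of those sensors, had 7.15 in tetraploid I and 3.71 to 4.61 on the other arrays. Zbp1, which encodes a sensor of left-handed nucleic acid that can trigger cell death, had 6.15 in tetraploid I and 3.88 to 4.43 on the others. Both lay below the array median everywhere but in tetraploid I.

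Of the transcription factors, those of the interferon complex followed the pattern and Irf1 did not. Stat2 had 9.39, 7.62 and 6.43 in tetraploid I, II and III, against 6.26, 6.66 and 7.65 in diploid I, II and III. Tetraploid I was highest, 3.33-fold above the next array, with tetraploid II and diploid III together in the second place. Irf9, the DNA-binding part of the complex, had 8.65 in tetraploid I and 7.47 in diploid III, and between 4.91 and 5.62 in the other 4 cultures. Irf7, the factor that amplifies interferon production, had 7.44 in tetraploid I and 3.78 to 5.02 on the other arrays. Irf1, a factor that interferon gamma induces strongly, had 8.08, 7.47 and 7.64 in tetraploid I, II and III, against 8.03, 8.46 and 7.75 in diploid I, II and III. Its highest value was in diploid II, and the groups overlapped.

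Isg15, the ubiquitin-like protein that is attached to newly made proteins during the response, had 7.90, 4.22 and 4.38 in tetraploid I, II and III, against 4.26, 4.14 and 5.0 in diploid I, II and III. It was 7.44-fold higher in tetraploid I than in diploid III, the next array. Usp18, the protease that removes ISG15 and blocks the receptor, had 8.78, 3.63 and 3.53 in tetraploid I, II and III, against 3.61, 3.58 and 7.14 in diploid I, II and III. Tetraploid I and diploid III were the 2 cultures with Usp18 above the array median, and the other 4 lay between 3.53 and 3.63. Trim25, the ubiquitin ligase that helps activate RIG-I, had 8.27, 7.46 and 7.15 in tetraploid I, II and III, against 7.05, 7.21 and 8.50 in diploid I, II and III. The same 2 cultures were highest, with diploid III above tetraploid I.

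Ifit1 and Ifit3 were among the members furthest apart, and Ifit2 was not. The products of the IFIT genes bind viral RNA and hold back its translation. Ifit1 had 10.13, 3.83 and 3.86 in tetraploid I, II and III, against 4.08, 4.88 and 6.01 in diploid I, II and III. The excess over diploid III, the next array, was 17.4-fold, the largest of any member and rank 3 among all genes. Ifit3 had 10.09, 7.15 and 4.84 in tetraploid I, II and III, against 4.86, 5.12 and 6.86 in diploid I, II and III. Tetraploid II and diploid III lay between tetraploid I and the other cultures. Ifit2 had 7.53, 6.54 and 6.10 in tetraploid I, II and III, against 5.61, 6.25 and 6.10 in diploid I, II and III, a narrower spread with the same culture on top. Ifit3 has a close copy, Ifit3b, at 6.77 in tetraploid I and 3.97 to 5.82 elsewhere, and probes may not separate the pair.

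The OAS family makes the oligoadenylate that activates the RNA-cutting enzyme RNase L in infected cells. Oasl2, an OAS-like gene, had 9.61, 4.57 and 4.72 in tetraploid I, II and III, against 5.06, 5.27 and 8.27 in diploid I, II and III. Again tetraploid I and diploid III stood above the other 4 cultures. Oas1a had 6.25 in tetraploid I and 3.62 to 4.08 on the others, and its close copy Oas1g 7.57 and 3.63 to 4.69, so that the 2 may share signal. Oas2 had 4.66 in tetraploid I and 3.58 to 3.82 elsewhere. Oas3 had 4.09, 3.77 and 3.75 in tetraploid I, II and III, against 3.65, 3.62 and 3.65 in diploid I, II and III. All tetraploid values lay above all diploid values, but below every array median. Oasl1, which in mouse holds back the translation of IRF7, had 4.36, 4.25 and 4.41 in tetraploid I, II and III, against 4.71, 4.56 and 4.66 in diploid I, II and III. Here all diploid values lay above all tetraploid values, in a range close to the array medians.

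Of the large GTPases, Gbp3 and Gbp2 are neighbours on chromosome 3 with unlike values. Gbp3 had 8.02, 4.64 and 4.34 in tetraploid I, II and III, against 4.98, 4.55 and 4.90 in diploid I, II and III, so that tetraploid I was 8.22-fold above the next array and diploid III did not stand out. Gbp2 had 7.78, 6.56 and 7.03 in tetraploid I, II and III, against 7.35, 7.29 and 6.58 in diploid I, II and III. Tetraploid I was highest by 1.35-fold only. Guanylate-binding proteins such as these attack vacuoles that hold pathogens. Mx1, which blocks influenza virus and is defective in many inbred mouse strains, had 3.93, 3.72 and 3.83 in tetraploid I, II and III, against 3.87, 3.81 and 4.19 in diploid I, II and III, all below the array medians. Mx2 had 4.81 in tetraploid I and 3.58 to 4.00 on the other arrays.

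Genes of membrane-associated antiviral proteins were highest in tetraploid I in all 4 cases. Ifitm3, which stops viruses from fusing with endosomes, was high everywhere, with 12.92, 11.74 and 12.01 in tetraploid I, II and III, against 11.62, 11.67 and 12.21 in diploid I, II and III. Bst2, the tetherin that holds budding virus at the surface, had 10.65, 5.64 and 7.58 in tetraploid I, II and III, against 7.91, 7.95 and 8.89 in diploid I, II and III. Tetraploid I held the highest and tetraploid II the lowest value of Bst2, so that the diploid values lay between those of the tetraploid group. Rtp4, which encodes a receptor-trafficking protein, had 9.89 in tetraploid I, 7.67 in diploid III and 5.01 to 5.67 elsewhere. Rsad2, the gene of viperin, which makes a nucleotide that stops viral polymerases, had 5.98 in tetraploid I and 3.87 to 4.66 on the others.

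Eif2ak2, the gene of PKR, the kinase that halts translation on double-stranded RNA, had 8.82, 7.20 and 7.12 in tetraploid I, II and III, against 6.89, 6.71 and 7.43 in diploid I, II and III. Samd9l, which encodes a restriction factor that acts on translation, had 8.97, 5.76 and 6.18 in tetraploid I, II and III, against 5.70, 5.80 and 6.60 in diploid I, II and III. In both, tetraploid I stood alone and diploid III came second. Cmpk2, a mitochondrial nucleotide kinase gene that lies next to Rsad2 on chromosome 12, had 5.37 in tetraploid I and 3.49 to 3.96 elsewhere. Ifi44 had 9.72, 4.10 and 5.78 in tetraploid I, II and III, against 5.34, 4.71 and 6.17 in diploid I, II and III, an excess of 11.7-fold over the next array. Ifi35, whose product binds the protein of another interferon-induced gene, Nmi, had 7.75, 5.96 and 6.09 in tetraploid I, II and III, against 6.39, 6.19 and 6.63 in diploid I, II and III. Together with Xaf1 and Parp14, these were 4 members outside the other roles, and in tetraploid I all 4 were more than 2-fold above every other array. Xaf1, which promotes cell death, had 7.92 in tetraploid I and 4.62 to 6.19 on the others, and Parp14, an ADP-ribosyltransferase gene, 7.56 and 5.0 to 6.11.

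Of the 34 members, 16 lay above the array median on all 6 arrays, and tetraploid I was highest in 13 of these and more than 2-fold above every other array in 10. Of the other 18 members it was highest in 16 and more than 2-fold above in 13. Of these 18, 7 lay above the array median in tetraploid I alone (Dhx58, Zbp1, Oas1a, Oas2, Mx2, Rsad2 and Cmpk2), and 2 lay below it on every array (Oas3 and Mx1). Near the lower end of the scale these arrays understate a ratio, so the folds of the 7 are uncertain.

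The first comparison of the design sets the tetraploid against the diploid cultures. By their means 29 of the 34 members were higher in the tetraploid group, against 39.1% of all genes, with a median log2 difference of 0.42 against -0.05 over all genes. No member passed the adjusted threshold of 0.05 (limma, smallest Benjamini-Hochberg adjusted p among members 0.876), and the count over all 25917 named probe sets was also 0. At an unadjusted p under 0.05 (limma) there were 0 members higher and 1 lower, where 2.95% of all genes were higher and 2.14% lower (5.09% in either direction). That member was Oasl1, with 4.34 ± 0.08 in tetraploid cultures and 4.64 ± 0.08 in diploid cultures (SD, n = 3 each) and a log2 difference of -0.30 (SE 0.09), which did not pass after adjustment (limma, adjusted p = 0.876). The groups did not overlap in 2 of 34 members, Oas3 and Oasl1, against 12.0% of all genes (4.82% with all tetraploid values above and 7.2% with all diploid values above). An exact permutation test of 3 against 3 cannot give a p under 0.1.

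In 29 of the 34 members the SD within the tetraploid group exceeded the size of the difference between the groups. Irf1, Ifit2, Oas3, Oasl1 and Mx1 were the exceptions. The share of all genes with such an SD is not given, so this count is no result about the members. Ifit1 averaged 5.94 ± 3.63 in tetraploid and 4.99 ± 0.97 in diploid cultures (SD, n = 3 each), a log2 difference of 0.95 (SE 1.84). Ifit3 averaged 7.36 ± 2.63 in tetraploid and 5.61 ± 1.08 in diploid cultures, a difference of 1.75 (SE 1.40), the largest among the members. Isg15 averaged 5.50 ± 2.08 in tetraploid and 4.47 ± 0.47 in diploid cultures, a difference of 1.03 (SE 1.05). The median SD of the members was 1.26 in the tetraploid and 0.42 in the diploid group, while over all genes it was 0.15 in the tetraploid and 0.22 in the diploid group.

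The difference rested on tetraploid I. Without that culture, tetraploid II and III had a lower mean than the diploid cultures in 25 of the 34 members, against 60.9% of all genes, and the median of the members was -0.28, against -0.05 over all genes. The sign turned in 20 members. Ifit1 then differed by -1.15 (SE 0.59), Usp18 by -1.20 and Bst2 by -1.64, while Ifit3 and Ifit2 stayed higher in the tetraploid cultures by 0.39 (SE 0.96) and 0.34 (SE 0.26). No member was at an unadjusted p under 0.05 in that setting (limma), where 2.01% of all genes were higher and 1.42% lower. Tetraploid II had the lowest value of all 6 cultures in 17 members, tetraploid III in 7, diploid I in 6 and diploid II in 4. How often each array was lowest over all genes is not given, so these counts are no result about the members.

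**Figure D2:**
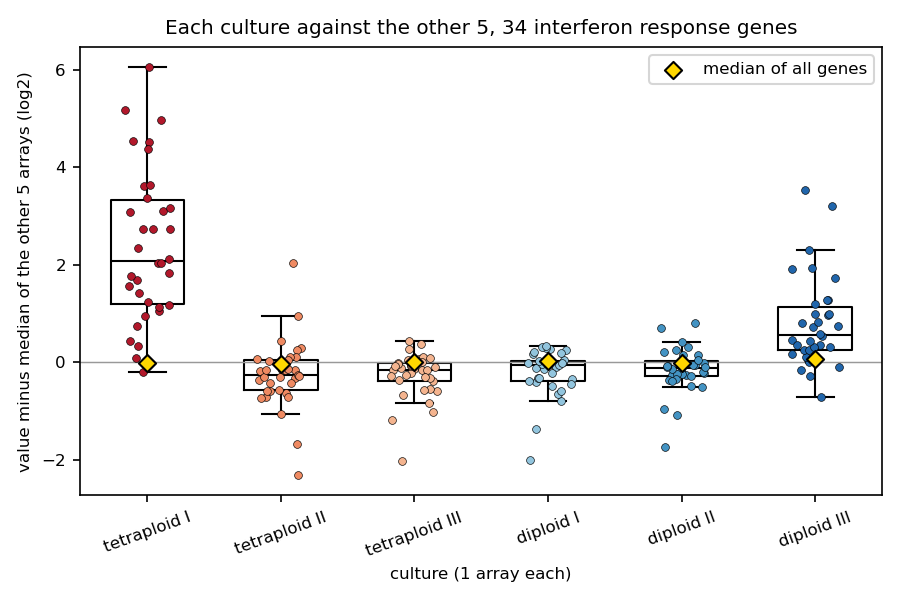
Log2 value of each of the 34 members on an array minus the median of the other 5 arrays, with boxes for the quartiles, whiskers within 1.5 interquartile ranges and a diamond for the median of all 22311 genes. The medians of the members are 2.08, -0.27 and -0.15 in tetraploid I, II and III, against -0.06, -0.11 and 0.56 in diploid I, II and III.

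Diploid III held the second highest value in 22 of the 34 members. Leaving tetraploid I aside, it was the highest of the other 5 arrays in 24 members, against 41.7% of all genes, and in 8 members it lay more than 2-fold above tetraploid II, tetraploid III, diploid I and diploid II together, against 2.19% of all genes. The excess over the median of those 4 arrays had a median of 2.12 in tetraploid I and 0.64 in diploid III over the members, and of -0.01 in tetraploid I and 0.08 in diploid III over all genes. Both excesses share the same 4 arrays. Usp18, Oasl2, Rtp4 and Irf9 were the clearest cases, and Gbp3, Zbp1, Gbp2 and Ifit2 were at the level of the other cultures in diploid III. The array of diploid III had the narrowest spread of values, with an interquartile range of 2.75 against 3.16 to 3.24 on the others. After quantile normalisation the 24 members became 23 (28.8% of all genes) and the 8 became 9 (2.64%). After centring the arrays on their medians, the 24 became 22 and the 8 became 4. Shares over all genes are not given after centring, so the centred counts are no result about the members. The endothelial markers Cdh5, Flt1 and Esam were at 11.03, 7.32 and 4.81 in diploid III and at 3.38 to 4.45 on the other arrays, and the other 7 of 10 such markers lay below every array median. Pf4, a platelet gene, and Epor, the erythropoietin receptor gene, were at 6.25 and 5.47 in diploid III and at 3.73 to 4.21 on the others. Of 10 erythroid and megakaryocyte markers, 7 lay below every array median. The remaining marker went the other way, above the array median in tetraploid I, tetraploid II and diploid I and not in diploid III. The part of these markers in the result was not tested.

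The second comparison took the ploidy difference separately in the primary cultures and in the cultures grown as a line or clone, because the groups differed in how many of each they held. Tetraploid I and diploid I are each the only culture of their ploidy and origin, so the spread in this fit comes from tetraploid II and III and diploid II and III, and both were assumed to vary like those. The p-values within primary cultures and of the difference between origins therefore restate the excess of the single array of tetraploid I and are no replication of it. Among primary cultures, tetraploid I against diploid II and III, 31 of 34 members were higher (40.4% of all genes), with a median log2 difference of 1.97. Of these, 23 were at an unadjusted p under 0.05 (limma) against 3.14% of all genes, 0 members were lower at that p against 1.42%, and 0 passed after adjustment (smallest adjusted p among members 0.401). Ifit1 differed by 4.68 (SE 0.54), Ifi44 by 4.27 (SE 1.02), Gbp3 by 3.30 (SE 0.27) and Oas1a by 2.26 (SE 0.20). Irf1, Mx1 and Oasl1, the 3 members that were not higher, differed by -0.03, -0.07 and -0.24.

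Where tetraploid II and III were set against diploid I, the line and clones, 23 of 34 members were lower (56.1% of all genes), with a median of -0.12, and 0 were at an unadjusted p under 0.05 (limma), against 1.13% of all genes higher and 1.59% lower, or passed after adjustment. The range ran from -1.30 for Bst2 to 1.13 for Ifit3. The difference between the origins was above 0 in all 34 members, against 46.1% of all genes, and 16 were at an unadjusted p under 0.05 and higher, against 2.06% of all genes, and 0 lower, against 0.807%, with 0 after adjustment (limma). The members had a median of 5.12 and 6.14 in the other primary cultures, diploid II and III. It was 4.63 and 4.93 in the other tetraploid cultures, tetraploid II and III, against 7.91 in tetraploid I. Tetraploid I was the only culture both primary and tetraploid, so that combination and any other trait of this culture cannot be told apart.

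**Figure D3:**
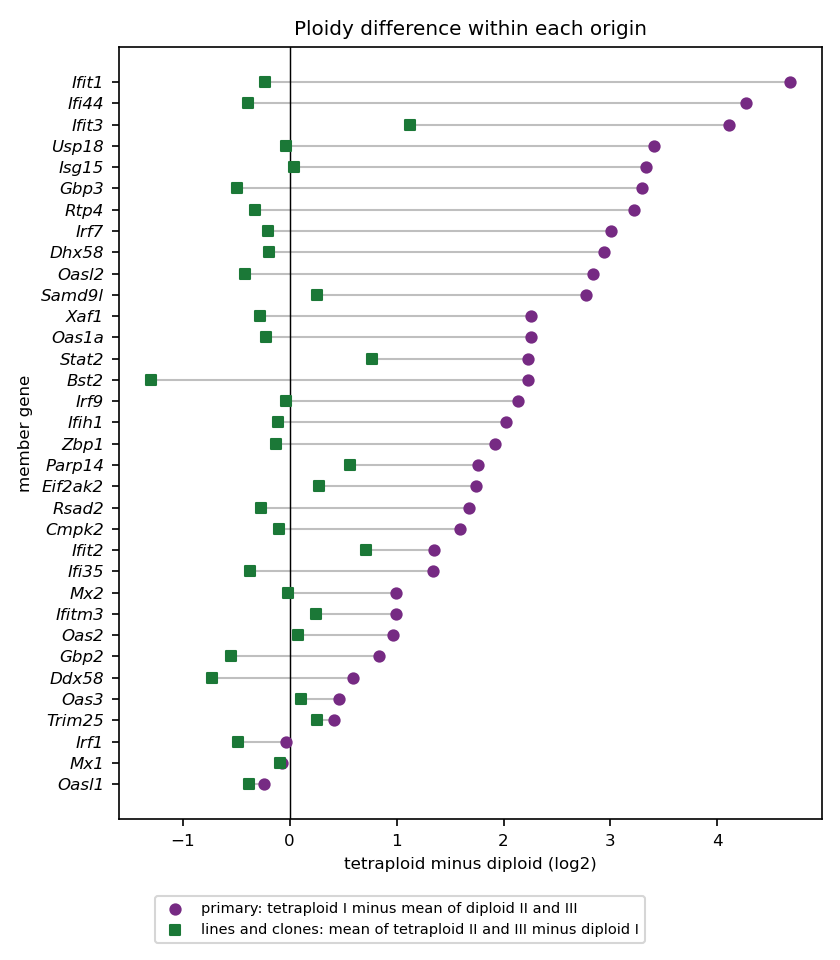
Log2 difference, tetraploid minus diploid, of each of the 34 members in primary cultures (circles, tetraploid I minus the mean of both diploid primary cultures) and in lines and clones (squares, the mean of tetraploid II and III minus diploid I), ordered by the first. The circles run from -0.24 to 4.68 and the squares from -1.30 to 1.13.

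The ligand genes upstream of the response were low in tetraploid I. Of 21 interferon ligand genes, 18 lay below the median of every array, and Ifnb1, the interferon that stromal cells make first, had 3.89, 3.59 and 3.85 in tetraploid I, II and III, against 3.86, 3.85 and 4.06 in diploid I, II and III. Ifnz, an interferon gene known in mouse, had 7.31 in diploid III and 3.82 to 4.53 on the other arrays. Ifnz had 8 probe sets, and these values are those of the probe set with the highest mean, with the others not shown. Of the 21, 4 had a higher mean in the tetraploid group and 17 a lower one, against 39.1% and 60.9% of all genes. None was at an unadjusted p under 0.05 (limma, 0 adjusted), where 2.95% of all genes were higher and 2.14% lower. The 3 with the smallest p were Ifna6, Ifna13 and Ifna5, with log2 differences of -0.26, -0.22 and 0.17.

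Receptors and kinases were present everywhere, and 10 of 13 genes of that list lay above the median of all arrays. Ifnar1, a chain of the type I receptor, had 8.04, 8.74 and 8.40 in tetraploid I, II and III, against 8.76, 9.10 and 9.31 in diploid I, II and III, a log2 difference of -0.66 (SE 0.23) without overlap of the groups, and tetraploid I had the lowest value. Jak1 and Ifnar2 were also lowest in tetraploid I, at 9.09 and 8.81. In this list 7 genes were higher and 6 lower by their means, against 39.1% and 60.9% of all genes. At an unadjusted p under 0.05 (limma, 0 adjusted) 0 were higher and 2 lower, against 2.95% and 2.14% of all genes. Ifnar1 was 1 of the 2 and the other was Ifngr2, a receptor chain for interferon gamma, at -0.38 (SE 0.15). The next gene by p was Pias1, an inhibitor of the pathway, at 0.28 (SE 0.11).

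Among 21 genes that lead to interferon production, 10 were higher and 11 lower by their means, against 39.1% and 60.9% of all genes. At an unadjusted p under 0.05 (limma, 0 adjusted) there was 1 in each direction, against 2.95% of all genes higher and 2.14% lower. Irf3, the factor that starts interferon transcription, had 6.48, 6.48 and 6.19 in tetraploid I, II and III, against 6.99, 6.89 and 7.26 in diploid I, II and III, a difference of -0.66 (SE 0.15). The kinase gene Ikbke was at 0.70 (SE 0.21), and Tbk1, which encodes a related kinase, at 0.72 (SE 0.29). Tlr3, an endosomal sensor of double-stranded RNA, had 6.17 in tetraploid I and 4.21 to 4.61 on the others. Tetraploid I was highest in 7 of the 21, against 13.0% of all genes.

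Further interferon-induced genes, also listed with earlier results known, were mostly highest in tetraploid I. Of 45 measured, tetraploid I was highest in 30 (13.0% of all genes) and more than 2-fold above every other array in 15 (1.03%). By their means 31 were higher and 14 lower in the tetraploid group, against 39.1% and 60.9% of all genes. At an unadjusted p under 0.05 (limma, 0 adjusted) 2 were higher and 0 lower, against 2.95% and 2.14% of all genes. These were Nlrc5, a regulator of antigen presentation, at 0.34 (SE 0.11), and Ifi27 at 0.62 (SE 0.24), and the next gene by p was Tdrd7, at 0.49 (SE 0.22). Nlrc5 had 19 probe sets, and its value is that of the probe set with the highest mean, with the others not shown. Ddx60, a helicase gene, had 7.69 in tetraploid I and 3.8 to 4.28 on the others, while Ly6e had 12.23 in diploid III and 11.49 in tetraploid I.

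NF-kappaB target genes are induced by inflammatory signals. All 17 had a lower mean in the tetraploid group, against 60.9% of all genes, and 1 was lower at an unadjusted p under 0.05 (limma, 0 adjusted), against 2.14%. Tetraploid I was highest in 0 of them, against 13.0% of all genes. That gene, Tnfaip3, which encodes an inhibitor of the pathway, had a log2 difference of -1.11 (SE 0.37), and Nfkbie and Tnfaip2 had -1.33 (SE 0.53) and -0.91 (SE 0.40). Il6, an inflammatory cytokine gene, was at 3.74 in tetraploid I, the lowest of the 6 values, and at 8.78 in diploid I, the highest.

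**Figure D4:**
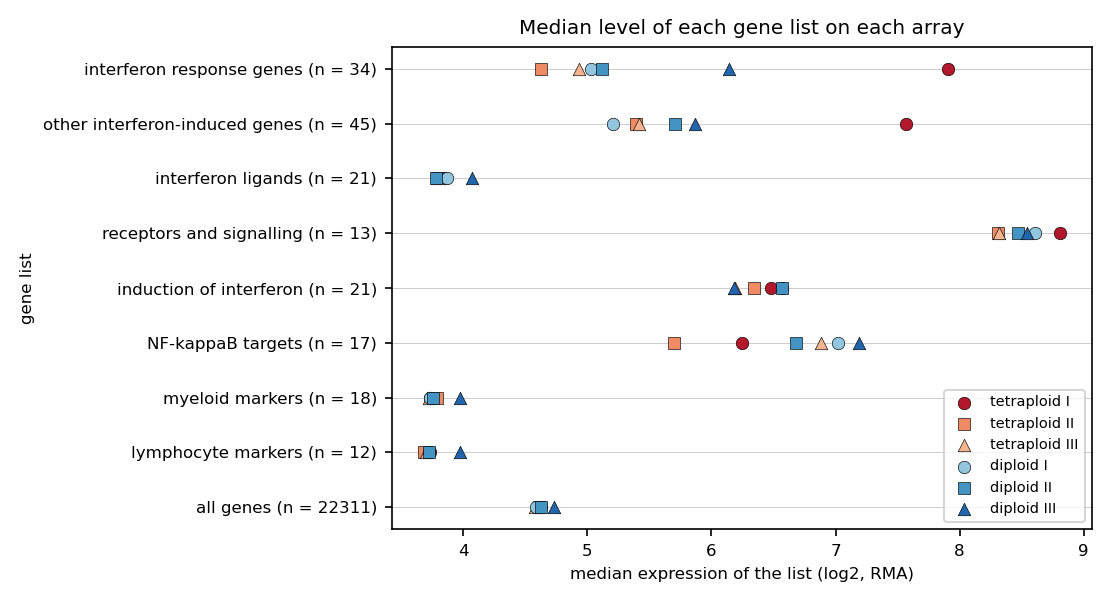
Median log2 expression (RMA) of each gene list on each array, with the number of measured genes. Tetraploid I stands apart in the interferon response genes (7.91) and in the other interferon-induced genes (7.57, against 5.21 to 5.87 on the other arrays), and in no other list shown does it exceed the next array by as much.

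Markers of blood cells, which marrow cultures can carry along, were low in tetraploid I. Of 18 myeloid markers, 15 lay below the median of every array, and the list had a mean of 3.87, 4.22 and 3.87 in tetraploid I, II and III, against 3.84, 3.89 and 4.18 in diploid I, II and III. The pan-leukocyte gene Ptprc had 3.8 in tetraploid I and 3.72 to 4.25 on the others, and Siglech, a marker of the plasmacytoid dendritic cells that make interferon, had 3.57 in tetraploid I and 3.70 to 3.90 on the others. All 12 lymphocyte markers lay below the median of every array. Of the exceptions, Cd68 and Lyz2 were at 7.97 and 7.0 in tetraploid II and at 3.97 and 4.48 in tetraploid I, and Cd14 was at 7.46 in diploid III and 5.53 in tetraploid I. All 8 epithelial markers lay below every array median. Of 13 stromal markers, 9 lay above the median of every array, among them Itgb1, Col1a1, Pdgfrb and Vcam1 (9.05 to 13.01). Nt5e had 3.90, 4.14 and 6.21 in tetraploid I, II and III, against 7.76, 7.73 and 3.95 in diploid I, II and III. It was low in both cultures with the highest interferon response values, and as low in tetraploid II, where the members had their lowest median (4.63). Pdgfra was lowest in tetraploid I, at 7.48, against 8.73 to 10.63 on the others. In addition, Thy1 was at 10.82 in tetraploid I, 8.56 in diploid I and 3.96 in tetraploid II, Eng was at 3.8 in tetraploid II, and Lepr was dim throughout (3.42 to 4.07).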

How the data were processed

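Affymetrix arrays measured biotin-labelled total RNA of the 6 cultures, per the labels. The deposited values were log2 expression per probe set. RMA and Partek are the tools in the submitters' processing notes, with no version given. The authors' deposited comparison table held, per the file headers, a p-value without adjustment and a signed fold (diploid divided by tetraploid). Its 6 columns of per-sample values matched no sample label and were not used. The sources used here give no genome build for the arrays.

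Of 35399 probe sets, 25917 had a symbol, and symbols were updated through RefSeq (GRCm38.p6). Symbols that are an old name of a member but the current name of another gene were not counted as that member. Members and lists were chosen with earlier results of these data known. Some lists were incomplete on the array, with 45 of 50 other interferon-induced genes measured.

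Tetraploid minus diploid was tested over all named probe sets, without a filter, by lmFit and eBayes (limma 3.58.1, R 4.3.3). P-values are two-sided and were adjusted by Benjamini and Hochberg's method. Alternatives covered normalisation, a filter on dim probe sets, weights, covariates and leaving out each culture. The difference within origins used 1 mean per ploidy and origin. Counts over members are set beside the share of 22311 genes, 1 probe set per gene. The fits were tested on simulated data. The number of arrays limits the precision. Plots used matplotlib 3.10.9 (Python 3.11.15).

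Values on every array are given for the 2 members of each role with the highest mean, members at an unadjusted p under 0.05, without overlap or not highest in tetraploid I, and the 3 furthest apart there. From each pathway list the 3 genes with the smallest p were named. Other genes named were chosen after their values were seen.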

Additional observations from a re-analysis of the deposited data

How the results depend on the processing

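Leaving out 1 culture moved the median log2 difference of the members between -0.28, without tetraploid I, and 0.91, without tetraploid II. The number of members with a higher mean in the tetraploid group ran from 9 to 30 in these settings, the number at an unadjusted p under 0.05 from 0 to 3 (3 without tetraploid III), and the number of probe sets past the adjusted threshold from 0 to 1 (1 without tetraploid III and 1 without diploid II). The median was 0.81 when arrays were weighted and 1.0 when origin entered as a covariate, where 4 members were at an unadjusted p under 0.05 (limma). Except without tetraploid I, shares over all genes at that p are not given for the settings of this paragraph. The counts at that p in these settings therefore cannot be set against all genes and are no result about the members. The filter on dim probe sets, which asked for values above the array median on at least 3 arrays, kept 21 of the members. Of these, 18 were higher by mean and 0 were at that p. In tetraploid I, 18 were highest and 15 more than 2-fold above every other array. Shares among all genes past the filter are not given, so the filtered counts cannot be set against all genes. The members that the filter removed were no longer counted. Oasl1, the member at that p without the filter, lay above the array median on 1 array and was removed. An intensity trend with robust moderation gave 0 members at that p. After centring, 4 members were more than 2-fold higher in diploid III than in the other cultures besides tetraploid I. That alternative was chosen after seeing the data, and the share over all genes is not given for it. The titles' repeat numbers did not pair the cultures (correlations of deviations between same-numbered cultures from -0.337 to -0.117), and with the replicate block the median was 0.42, with 1 member at that p. The signs of Trim25, Oasl2 and Gbp2 turned after quantile normalisation, at -0.04, -0.04 and -0.02, and that of Bst2 with the origin covariate, at 0.46. For the members whose sign turned when 1 culture was left out, the log2 difference ran from -0.28 to 1.44 for Dhx58, -0.27 to 0.87 for Zbp1, -0.48 to 1.35 for Irf7, -0.84 to 1.03 for Irf9, -0.17 to 1.67 for Isg15, -1.20 to 1.71 for Usp18 and -0.28 to 0.50 for Trim25. It also ran from -1.15 to 2.00 for Ifit1, -0.28 to 1.04 for Oas1a, -1.55 to 1.13 for Oasl2, -0.12 to 0.50 for Mx2, -0.28 to 0.33 for Gbp2, -0.32 to 1.52 for Gbp3 and -1.64 to 0.86 for Bst2. The remaining ranges were -0.37 to 0.68 for Rsad2, -1.19 to 1.25 for Rtp4, -0.21 to 0.74 for Cmpk2, -0.07 to 1.54 for Samd9l, -0.46 to 2.34 for Ifi44, -0.38 to 0.52 for Ifi35 and -0.59 to 1.05 for Xaf1. The cause of these changes was not tested.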

Other observations

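Tetraploid I also stood apart in genes outside the interferon response. The 10 genes beyond the members with the largest gap between tetraploid I and the next array were Gpx3, Ano3, Cthrc1, Gstk1, Enpp3, Ptn, Cdkn2a, Hoxa11, Svop and Igf2bp3, and 0 of them were on the interferon lists. Gpx3, a secreted glutathione peroxidase gene, had 9.17 in tetraploid I and 3.57 to 3.84 on the other arrays. Ptn, a secreted growth factor gene of bone and marrow, had 10.89 in tetraploid I and 4.14 to 7.34 on the others. Cdkn2a, which encodes the cell cycle inhibitors p16 and ARF, had 7.98 in tetraploid I and 3.84 to 4.49 on the others, and Hoxa11, a limb patterning gene, 7.54 and 3.78 to 4.06. In all, 229 genes lay more than 2-fold above every other array in tetraploid I, 23 of them members. Such genes numbered 346 and 22 in tetraploid II and III, against 93, 42 and 406 in diploid I, II and III. Having genes that stand apart was therefore not particular to tetraploid I.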
